A study of Mus musculus with 12 samples.

Results

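The genes described here encode the factors that start, carry on and end protein synthesis on the ribosome. They were all genes whose single symbol in the probe-to-gene table begins with Eif1 to Eif6, Eef1 or Eef2, together with Etf1 and the Gspt genes. Of 8708 named genes on the array, 53 met this rule, through 126 of its 20736 probes. By role they were 38 initiation factors, 4 elongation factors, 5 regulators (kinases and repressors), 2 termination factors and 4 others. Of the 53 genes, 36 were read by more than 1 probe and 17 by a single probe. A value was present on all 12 arrays for every gene except Eif2a and Eif5a2, each missing on 1 array. Of the Eif4ebp repressors only Eif4ebp2 was measured under this rule.

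The study compared mice with and without the genome of NOD, an inbred strain that develops autoimmune diabetes, on 12 two-colour arrays in 6 groups of 2. Every array carried RNA of one group against RNA of C57BL/6 (B6) mice: B6 spleen T cells on 10 arrays and B6 kidney cells on the 2 kidney arrays. The groups were spleen T cells of NOD, of NOD.H2h4 (the NOD background with another haplotype of the major histocompatibility complex) and of B6.NODIdd1,5 (B6 mice carrying the NOD diabetes intervals Idd1 and Idd5), kidney cells of B6.NODIdd1,5, and spleen T cells of 2 kinds of bone marrow transfer mice. NODtoB6 mice were B6 recipients of NOD marrow, and B6toNOD mice were NOD recipients of B6 marrow, so each transfer recipient could also hold remaining cells of its own. The labels gave neither the age nor the sex of the mice, nor how T cells were isolated, nor whether the 2 arrays of a group came from separate mice, so p-values measure the spread between arrays, which may be technical.

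Translation begins when eIF2 brings the initiator methionyl-tRNA to the small ribosomal subunit, eIF3 holds that complex together, and eIF4F (the cap-binding protein eIF4E, the scaffold eIF4G and the helicase eIF4A) recruits the messenger RNA. In elongation, eEF1A delivers each aminoacyl-tRNA, the eEF1B subunits recharge eEF1A with GTP, and eEF2 moves the ribosome to the next codon. The pathway is throttled at eIF4E by the Eif4ebp proteins, at eIF2 by the eIF2 alpha kinases and at eEF2 by its own kinase. In T cells the whole machinery is known to expand after activation. Many messenger RNAs for elongation factors and ribosomal proteins begin with a run of pyrimidines (C and T), through which the growth-controlling kinase complex mTORC1 adjusts their translation.

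Because such a run is a shared feature that the choice of genes did not use, the start regions of the elongation factor genes Eef1a1, Eef1b2 and Eef2, of 3 eIF3 subunits that were lower in 2 strains and of the X- and Y-linked pair Eif2s3x and Eif2s3y are shown. Each window holds 30 bases before and 30 from the transcription start annotated by RefSeq (GRCm38.p6), 5′ to 3′ on the gene's own strand, with every run of at least 7 C or T in capitals, including a run that continues past the window. They were picked after expression values had been seen.
Eef1a1 (chr9:78481695-78481754, minus strand): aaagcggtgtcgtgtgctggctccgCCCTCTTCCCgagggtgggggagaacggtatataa
Eef1b2 (chr1:63176801-63176860, plus strand): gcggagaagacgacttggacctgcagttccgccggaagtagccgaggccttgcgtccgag
Eef2 (chr10:81176601-81176660, plus strand): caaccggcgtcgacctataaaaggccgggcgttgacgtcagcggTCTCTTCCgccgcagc
Eif3f (chr7:108934385-108934444, plus strand): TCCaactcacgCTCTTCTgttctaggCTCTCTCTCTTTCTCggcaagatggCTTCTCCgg
Eif3l (chr15:79075193-79075252, plus strand): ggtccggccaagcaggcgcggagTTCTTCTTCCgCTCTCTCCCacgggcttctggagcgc
Eif3m (chr2:105016998-105017057, minus strand): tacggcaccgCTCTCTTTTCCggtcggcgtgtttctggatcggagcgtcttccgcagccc
Eif2s3x (chrX:94212622-94212681, minus strand): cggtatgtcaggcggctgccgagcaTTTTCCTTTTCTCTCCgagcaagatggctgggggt
Eif2s3y (chrY:1010565-1010624, plus strand): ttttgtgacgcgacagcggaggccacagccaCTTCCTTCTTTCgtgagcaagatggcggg
The longest run spanned the annotated start in Eef1a1, Eif3f, Eif3l and Eif2s3x. It ended before the start in Eif3m and began after it in Eef2 and Eif2s3y, and Eef1b2 held none in this window. RefSeq promoter windows were matched for 43 of the 53 genes. A C followed by at least 6 more C or T, within 40 bases either side of the start on the gene's strand, was found in 22 of those 43 (51.2%) and in 37.5% of all 27025 genes with a window. On the opposite strand the run was found in 14 of the 43 (32.6%) and in 41.3% of all genes. The match is a description of these letters only.

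Values are log2 ratios to B6, centred on each array's median over all features, so 0 means the same ratio as the typical feature of that array and 1 a doubling. The deposited medians before centring lay between -0.88 and -0.01, and centring raised each value by 0.80 in NOD.H2h4, 0.76 in B6toNOD, 0.46 in kidney, 0.23 in NODtoB6, 0.18 in B6.NODIdd1,5 T cells and 0.15 in NOD (group means of the 2 arrays). A centred rise smaller than this amount is therefore a fall on the deposited, uncentred scale, and a larger one shrinks by it, which applies to every rise given here for those groups. Tests were limma fits over all 12 arrays with Benjamini-Hochberg adjustment over all features tested, and a gene is called higher or lower at an adjusted p below 0.05. A fit against B6 takes the spread of B6 as 0 and does not remove dye bias, since the labels record no dye swap. The dyes of the 4 transfer arrays were not given in the labels. Their direction is taken to be that of the 8 strain arrays, and the 2 sets also differ in the rounding of their values. Over all features, arrays of the same group correlated at r = 0.505 to 0.76 and arrays of different groups at -0.0215 to 0.447. Of the T cell markers only Cd4 was measured (1 of 10), so the labelled cell type could not be checked from markers.

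The factor genes were near B6 levels in NOD T cells, lower in NOD.H2h4 and B6.NODIdd1,5 T cells, mixed in B6.NODIdd1,5 kidney, and more often higher in the marrow transfer mice, above all in B6toNOD. In NOD T cells 2 of 53 were lower (3.77%, against 2.28% of all named genes) and none was higher (against 5.56%), and the median of the 53 was -0.01. In NOD.H2h4 T cells 23 of 53 (43.4%) were lower, against 18.5% of named genes, and 6 were higher (11.3%, against 15.5%). The median was -0.27 for the factors and -0.14 for all named genes. In B6.NODIdd1,5 T cells 25 of 53 (47.2%) were lower, against 18.2% of named genes, and 5 were higher (9.43%, against 10.8%), with a median of -0.39 for the factors and -0.08 for all named genes. These shares of lower genes stood above the background in both strains, and those of higher genes did not. Counts from fits with arrays left out or fitted apart, here and below, have no share over all features beside them. Such counts do not set the factors apart. Leaving out 1 NOD.H2h4 array left 18 or 17 factors called there, and 0 were called in NOD without its replicate 2 or without any single NOD.H2h4 or kidney array.

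In B6.NODIdd1,5 kidney 9 of 53 were higher (17%) and 11 lower (20.8%), against 14.1% and 11.9% of named genes, with medians of -0.11 and -0.07. In NODtoB6 T cells 11 of 52 tested were higher (21.2%) and 5 lower (9.62%), against 12.9% and 12.4% of named genes. In B6toNOD T cells 24 of 52 were higher (46.2%, against 26.3%) and 5 lower (9.62%, against 21.6%), and the median was 0.35 for the factors and -0.04 for all named genes. The direction in B6toNOD is relative to the array: on the deposited, uncentred scale 4 of the factors were higher and 25 lower. The same change of scale gave 1 higher and 43 lower in NOD.H2h4, 0 and 28 in B6.NODIdd1,5 T cells, 1 and 25 in kidney, and 3 and 8 in NODtoB6. Every feature of an array moves down by the same amount on that scale, so these uncentred counts do not set the factors apart. Without either kidney array 8 or 10 factors were called in kidney, and without NODtoB6 replicate 2 the count was 5 in NODtoB6. With the transfer arrays fitted alone it was 0 in NODtoB6 and 12 in B6toNOD.

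Markers of other cell types moved with these groups. The myeloid list (4 of 10 markers measured) had a median between 4.61 and 4.68 on the B6toNOD arrays and between 2.67 and 2.85 on the NODtoB6 arrays, with all 4 called higher in both. Its median was 1.21 and 1.25 on the NOD.H2h4 arrays (where Lyz2 went the other way, at -0.56 and -0.70), 0.83 and 0.88 on the NOD arrays, and -0.86 and -0.69 on the B6.NODIdd1,5 T cell arrays. The erythroid list had medians of 2.58 and 2.84 on the NODtoB6 arrays, 1.46 and 1.63 on the NOD arrays, and -0.89 and -0.58 on the B6.NODIdd1,5 T cell arrays. Car2 went the other way on the NOD arrays (-0.42 and -0.95), and Ermap on the B6.NODIdd1,5 T cell arrays (0.18 and 0.32). The B cell list (2 of 6 measured, Cd79b and Blk) had medians of -1.19 and -1.41 on the NOD.H2h4 arrays, -1.04 and -1.02 on the NODtoB6 arrays, and -0.27 and 0.71 on the B6.NODIdd1,5 T cell arrays. Cd79b read -0.61 and -0.92 and Blk -0.50 and -0.50 on the NOD arrays. On the NOD.H2h4 arrays the erythroid markers were split, with Hbb-b1 at 1.83 and 1.87 and Slc4a1 at -0.59 and 0.19. The same 2 markers were at 1.73 and 1.74, and at -1.84 and 0.23, on the B6toNOD arrays. The part of these cell types in the factor values was not tested. In such bulk RNA, fewer cells of a type and less RNA per cell cannot be told apart.

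**Figure D1:**
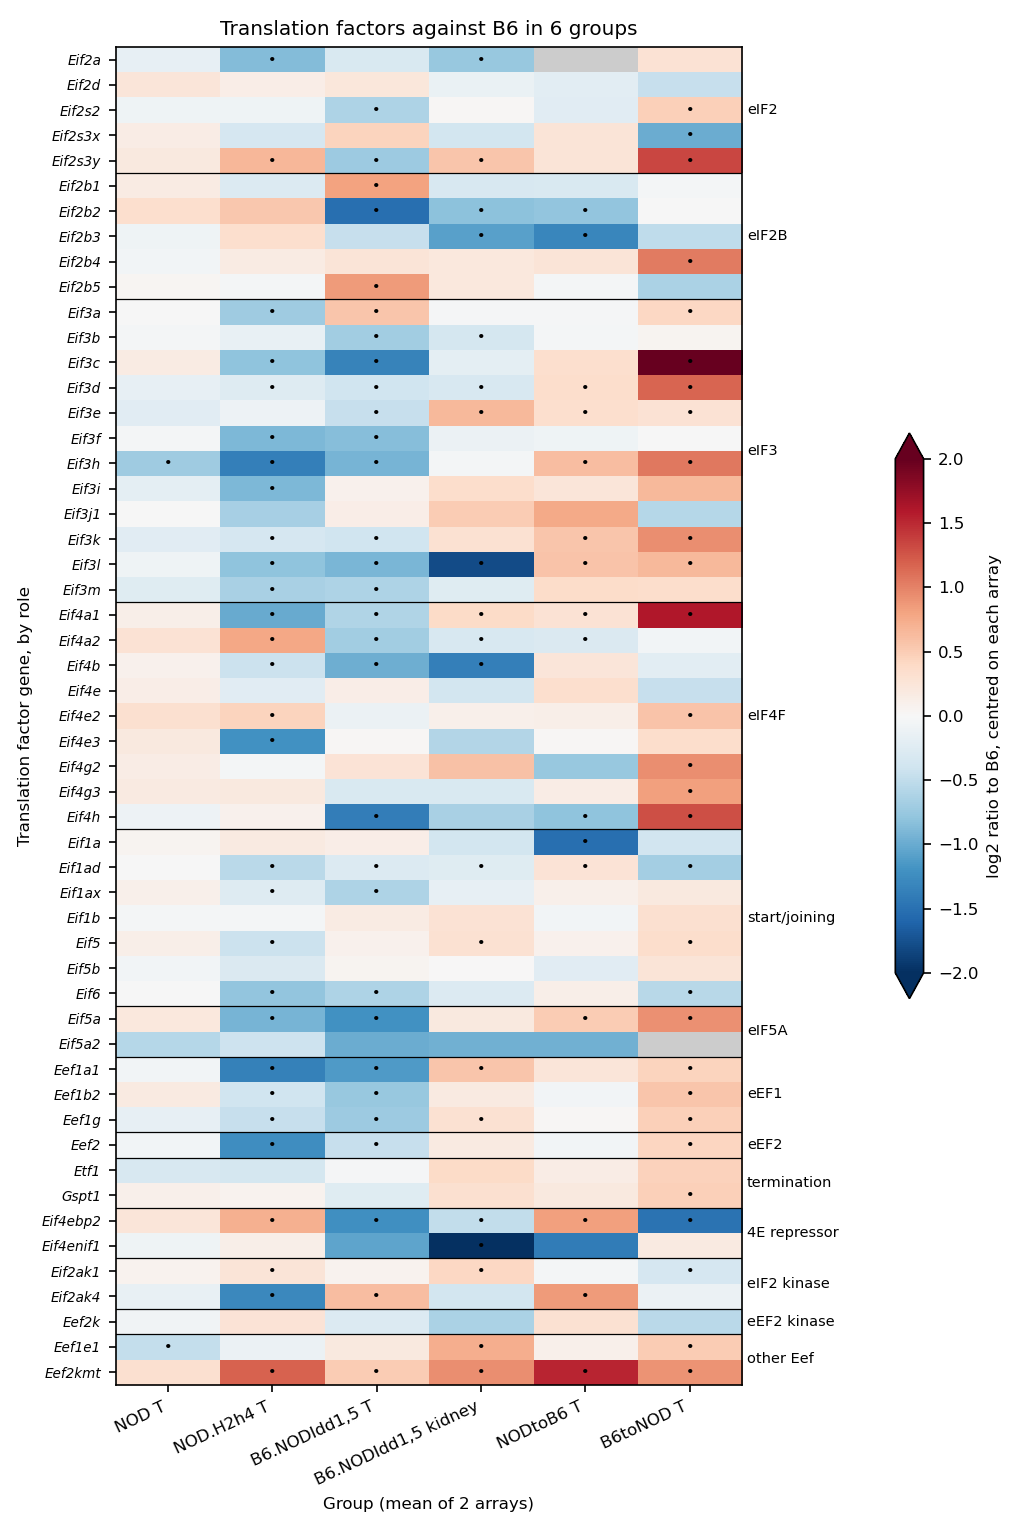
Mean centred log2 ratio to B6 of each of the 53 genes (rows, by role) in the 6 groups (columns, mean of 2 arrays). Red is higher and blue lower than B6, a dot marks an adjusted p below 0.05, grey was not tested, and colours stop at 2 and -2. NOD holds 2 dots, whereas B6toNOD holds 29, of which 24 are on red on this centred scale. Of all named genes, 5.56% were called higher and 2.28% lower in NOD, and 26.3% and 21.6% in B6toNOD. The number of dots thus also follows how many genes of any kind were called in a group.

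The 4 elongation factors were all lower in NOD.H2h4 (against 18.5% of named genes) and in B6.NODIdd1,5 T cells (against 18.2%). None was called in NOD (against 5.56% higher and 2.28% lower) or NODtoB6 (against 12.9% and 12.4%). All 4 were higher in B6toNOD (against 26.3%) and 2 in kidney (against 14.1%) on the centred scale. Their medians uncentred were -0.30 in B6toNOD and -0.21 in kidney. In NOD.H2h4 the median of the 4 elongation factors was -0.85 ± 0.00 (SD, n = 2 arrays) and that of the 38 initiation factors -0.26 ± 0.04. These SDs do not cover the spread between genes: the 4 elongation factors ran from -1.25 to -0.41 on 1 array and from -1.45 to -0.39 on the other. Within the initiation class eIF3 had medians of -0.69 and -0.79 on these arrays, and eIF4F with its helpers 0.06 and -0.15. In B6.NODIdd1,5 T cells the medians were -0.76 ± 0.06 for elongation and -0.42 ± 0.08 for initiation. Initiation minus elongation was therefore 0.60 ± 0.04 and 0.35 ± 0.02 in these groups, on the log2 scale.

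In kidney the order was the opposite, with a median of 0.25 ± 0.02 for elongation and -0.21 ± 0.03 for initiation, a difference of -0.46 ± 0.02. B6toNOD also had elongation above initiation, at 0.48 ± 0.01 and 0.30 ± 0.02. Centring shifts both classes alike and leaves these differences as they are. In NOD the medians were -0.06 and 0.01. The NODtoB6 arrays did not share an order: initiation minus elongation was -0.02 on 1 array and 0.21 on the other. The contrast depends on which genes are counted: set as all Eif against all Eef symbols, it was 0.14 in NOD.H2h4 and 0.00 in B6.NODIdd1,5 T cells. The difference between the classes was not tested, and the elongation class holds only 4 genes.

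**Figure D2:**
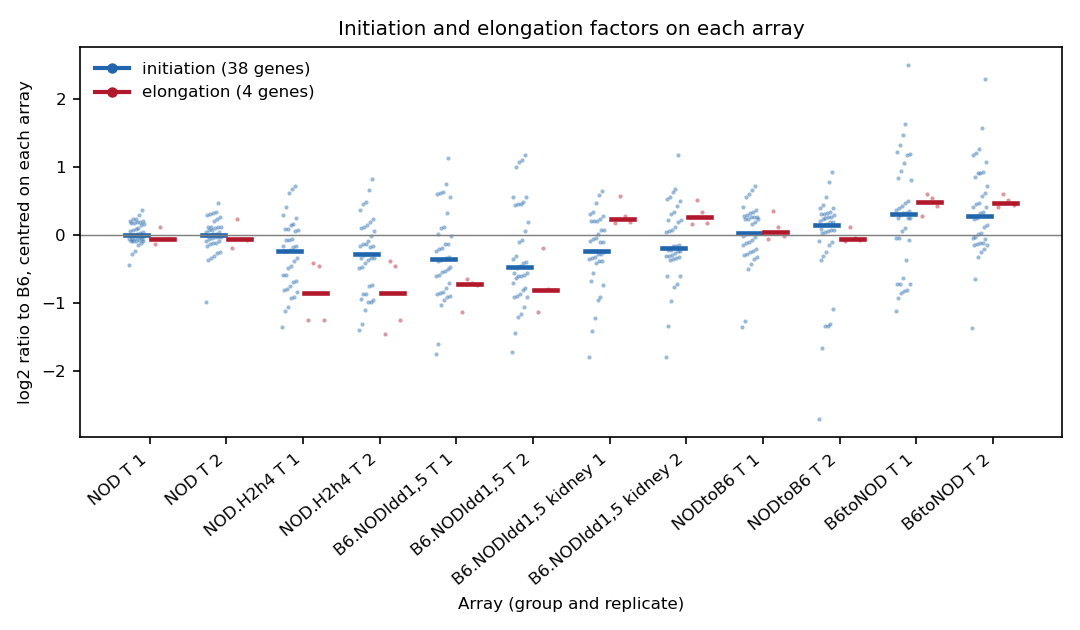
Centred log2 ratio to B6 (vertical axis) of every initiation factor (blue) and elongation factor (red) on each of the 12 arrays. Points are genes and bars are medians. The red bar is below the blue bar on all 4 NOD.H2h4 and B6.NODIdd1,5 T cell arrays and above it on both kidney and both B6toNOD arrays.

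Eef1a1 encodes eEF1A, the carrier of aminoacyl-tRNA. It was at -0.05 and -0.07 on the NOD arrays, -1.25 and -1.45 on NOD.H2h4, -1.13 and -1.13 on B6.NODIdd1,5 T cells, 0.58 and 0.52 on kidney, 0.36 and 0.13 on NODtoB6, and 0.29 and 0.60 on B6toNOD. Both NOD.H2h4 and both B6.NODIdd1,5 T cell arrays lay below all the others. The fall against B6 was 1.35 ± 0.10 log2 units (SE, n = 2, limma adjusted p = 9.1e-05) in NOD.H2h4 and 1.13 ± 0.10 (adjusted p = 0.00025) in B6.NODIdd1,5 T cells, whereas NOD gave -0.06 ± 0.10 (adjusted p = 0.87). NOD.H2h4 minus NOD was -1.29 ± 0.14 (adjusted p = 0.0025). In B6.NODIdd1,5 mice Eef1a1 was lower in T cells and higher in kidney (0.55 ± 0.10, adjusted p = 0.0051, but 0.09 and adjusted p = 0.57 uncentred). T cells minus kidney was -1.68 ± 0.14 (adjusted p = 0.00038).

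Of the 8 Eef1a1 probes, 7 gave similar values in NOD.H2h4 and kidney and 1 stood apart. The 7 probes ranged from -1.83 to -1.02 in NOD.H2h4 and from 0.67 to 1.21 in kidney, while the other read -0.41 and -1.96, and -2.49 in B6toNOD. In B6toNOD 1 of the 7 read 0.14 and the other 6 read 0.79 to 1.21. With the median of the probes in place of the mean, Eef1a1 was 0.86 in kidney and 0.85 in B6toNOD, against means of 0.55 and 0.44. Uncentred, Eef1a1 was -0.32 in B6toNOD.

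Eef2, whose product moves the ribosome along the message, was at -1.25 on both NOD.H2h4 arrays and between -0.06 and 0.44 on the 8 arrays of NOD, kidney and the transfers. The B6.NODIdd1,5 T cell arrays read -0.73 and -0.19, less alike than those of any other group. This gap came from 1 of its 4 probes, at -0.43 and 1.74, while the other 3 had means of -0.85, -0.75 and -0.90. Its fall was 1.25 ± 0.11 in NOD.H2h4 (adjusted p = 0.00018) and 0.46 ± 0.11 in B6.NODIdd1,5 T cells (adjusted p = 0.021, and 0.093 after a running median along the probe order was subtracted). With the median of the probes it was -0.79 (adjusted p = 0.00015). NOD.H2h4 minus NOD was -1.19 ± 0.16 (adjusted p = 0.0045), and B6.NODIdd1,5 T cells minus kidney -0.64 ± 0.16 (adjusted p = 0.031). That difference was no longer called in 10 of 21 alternatives (-0.36 and adjusted p = 0.41 uncentred), ran from -0.91 to -0.37 with 1 array left out, and was -1.01 with the median of the probes. In B6toNOD it was 0.43 ± 0.11 (adjusted p = 0.016), which turned to -0.33 uncentred.

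Eef1g and Eef1b2 encode subunits of the exchange complex that recharges eEF1A. Eef1g fell by 0.46 ± 0.08 in NOD.H2h4 and by 0.73 ± 0.08 in B6.NODIdd1,5 T cells, and rose in kidney (0.31 ± 0.08) and B6toNOD (0.48 ± 0.08). Eef1b2 had close arrays in every group, with -0.41 and -0.39 in NOD.H2h4, -0.71 and -0.80 in B6.NODIdd1,5 T cells and 0.61 and 0.51 in B6toNOD. The order of sizes therefore differed: Eef1a1 and Eef2 were lowest in NOD.H2h4, and Eef1g and Eef1b2 lowest in B6.NODIdd1,5 T cells. Eef2k, the kinase that slows eEF2, was not called in any group, with group means from -0.64 to 0.30.

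Eif5a, the hypusine-bearing factor that helps stalled ribosomes on and was named for initiation, fell in the same T cell groups as the elongation factors and rose in both transfers. It was at -0.92 and -0.94 on NOD.H2h4, -1.30 and -1.13 on B6.NODIdd1,5 T cells, 0.20 and 0.19 on kidney, 0.61 and 0.41 on NODtoB6 and 0.97 and 0.86 on B6toNOD. The falls were 0.93 ± 0.08 (adjusted p = 0.00015) and 1.21 ± 0.08 (adjusted p = 7.4e-05), and the rises 0.51 ± 0.08 in NODtoB6 (adjusted p = 0.0047) and 0.91 ± 0.08 in B6toNOD (adjusted p = 8.1e-05). Uncentred, neither rise was called, at 0.28 (adjusted p = 0.15) in NODtoB6 and 0.15 (adjusted p = 0.30) in B6toNOD. Both NOD arrays were above 0, at 0.14 and 0.27, and the difference of NOD.H2h4 from NOD was -1.14 ± 0.11 (adjusted p = 0.0021). B6.NODIdd1,5 T cells minus kidney was -1.41 ± 0.11 (adjusted p = 0.00032). Eif5a2, a second gene for this factor, was not called where it was tested.

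eIF3, the large scaffold on the small ribosomal subunit, contributed 12 genes, most of them lower in the same 2 T cell groups. In NOD.H2h4, 9 of the 12 (75%, against 18.5% of named genes) were lower and none higher (median -0.69), and in B6.NODIdd1,5 T cells 9 (against 18.2%) were lower and 1 higher (median -0.54). In NODtoB6, 5 (41.7%, against 12.9%) were higher and none lower (median 0.35), and in B6toNOD 7 (58.3%, against 26.3%) were higher and none lower (median 0.53, and -0.23 uncentred). Kidney had 1 higher (against 14.1% of named genes) and 3 lower (against 11.9%), and NOD 1 lower (against 2.28%). Eif3j1, whose product binds the complex loosely, was the single eIF3 gene called in no group.

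Eif3c, a core subunit read by 1 probe, had the widest range of all 53 genes over the 6 groups, 3.73 log2 units. Its arrays read 0.08 and 0.23 in NOD, -0.75 and -0.87 in NOD.H2h4, -1.75 and -0.91 in B6.NODIdd1,5 T cells, -0.24 and -0.14 in kidney, 0.33 and 0.34 in NODtoB6, and 2.50 and 2.29 in B6toNOD. The B6toNOD arrays thus stood far above the rest, at 2.40 ± 0.17 (adjusted p = 3.2e-05). NODtoB6 minus B6toNOD was -2.06 ± 0.24 (adjusted p = 0.00067 in the fit of all 12 arrays, and 0.064 when the 4 transfer arrays were fitted alone).

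Eif3h, another eIF3 subunit with 1 probe, was the only initiation factor called in NOD, where its arrays read -0.44 and -0.98 (-0.71 ± 0.16, adjusted p = 0.028, and adjusted p = 0.12 uncentred). It was at -1.35 and -1.39 on NOD.H2h4, -0.71 and -1.16 on B6.NODIdd1,5 T cells, 0.66 and 0.56 on NODtoB6 and 1.19 and 0.92 on B6toNOD. The NOD-background strains and the congenic T cells were thus below B6 and both transfers above it. Eif3f fell by 0.90 ± 0.17 in NOD.H2h4 and by 0.86 ± 0.17 in B6.NODIdd1,5 T cells, and read between -0.28 and 0.11 on all other arrays. Eif3m fell by 0.64 and 0.62 in the same groups.

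Eif3a, the largest eIF3 scaffold subunit, went the other way from its complex in B6.NODIdd1,5 T cells, at 0.63 and 0.48 on the 2 arrays. Its 7 probes did not share a direction there: the 6 with a value ranged from -0.80 to 2.38. In NOD.H2h4 all 7 were below 0, and the mean was -0.71. Eif3e rose in kidney, at 0.65 and 0.63 (0.64 ± 0.09, adjusted p = 0.0017, but 0.18 and adjusted p = 0.38 uncentred).

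eIF4F and its helpers (9 genes) did not shift as one. Eif4a1, the main cap-complex helicase, was at -1.05 and -0.98 on NOD.H2h4, -0.60 and -0.60 on B6.NODIdd1,5 T cells, 0.34 and 0.42 on kidney, 0.27 and 0.31 on NODtoB6, and 1.64 and 1.57 on B6toNOD. It was called in 5 of the 6 groups, lower in 2 and higher in 3. The falls were 1.02 ± 0.07 (adjusted p = 7.1e-05) and 0.60 ± 0.07 (adjusted p = 0.00077), and B6toNOD was 1.60 ± 0.07 (adjusted p = 5.2e-06), the smallest p among the factors in that group. The kidney value of 0.38 ± 0.07 (adjusted p = 0.0049) turned to -0.08 uncentred. In B6.NODIdd1,5 T cells 1 of its 2 probes carried the change (-1.14 against -0.06).

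Its close paralogue Eif4a2 differed in NOD.H2h4, at 0.72 and 0.82, where it was higher by 0.77 ± 0.08 (adjusted p = 0.00026, with a value of -0.03 uncentred). In B6.NODIdd1,5 T cells both helicases were lower (Eif4a2 -0.70 ± 0.08). In B6toNOD Eif4a2 read -0.08 and -0.04. NOD.H2h4 minus NOD was 0.49 ± 0.11 for Eif4a2 (adjusted p = 0.023, with a value of -0.16 uncentred) and -1.14 ± 0.10 for Eif4a1 (adjusted p = 0.0015), so the paralogues were called in opposite directions on the centred scale.

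Eif4e, the cap-binding protein itself, was not called in any group. Its B6.NODIdd1,5 T cell arrays read -0.90 and 1.17, which gave a mean of 0.13 ± 0.41 and leaves that group without a usable value. The related cap binders differed: Eif4e3 fell by 1.21 ± 0.25 in NOD.H2h4, and Eif4e2 rose in NOD.H2h4 (0.45) and B6toNOD (0.57). Eif4g2, a scaffold that lacks the cap-binder site, was 0.94 and 0.92 on B6toNOD and -0.43 and -1.09 on NODtoB6. The difference between the transfers was -1.69 ± 0.38 (adjusted p = 0.011) and -0.65 with the median of its 5 probes. Eif4g3, a scaffold of the usual kind, was 0.82 in B6toNOD.

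Eif4ebp2, the repressor that holds eIF4E away from eIF4G until it is phosphorylated, was called in 5 of the 6 groups, in both directions. Its single probe read 0.27 and 0.21 in NOD, 0.70 and 0.71 in NOD.H2h4, -1.07 and -1.38 in B6.NODIdd1,5 T cells, -0.51 and -0.47 in kidney, 0.61 and 1.03 in NODtoB6, and -1.64 and -1.31 in B6toNOD. The 2 arrays agreed in sign in every group, and NOD.H2h4 and NODtoB6 were the highest. It was higher in NOD.H2h4 (0.71 ± 0.13, adjusted p = 0.0038, with a value of -0.09 uncentred) and NODtoB6 (0.82 ± 0.13, adjusted p = 0.0045). It was lower in B6.NODIdd1,5 T cells (-1.22 ± 0.13, adjusted p = 0.0005), kidney (-0.49 ± 0.13, adjusted p = 0.022) and B6toNOD (-1.47 ± 0.13, adjusted p = 7.4e-05). On the centred scale Eif4ebp2 moved opposite to Eif4a1 in NOD.H2h4, kidney and B6toNOD. Both were lower in B6.NODIdd1,5 T cells and both higher in NODtoB6. Uncentred, both were below 0 in NOD.H2h4 and kidney.

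The reciprocal transfers differed in Eif4ebp2 by 2.29 ± 0.18 (NODtoB6 minus B6toNOD, adjusted p = 0.00015), the largest difference among the 51 factors tested in that comparison. The limma adjusted p was 0.064 when the 4 transfer arrays were fitted alone, and the sizes assume the same dye order in both transfers. B6.NODIdd1,5 T cells were below NOD by 1.46 ± 0.18 (adjusted p = 0.0017) and below kidney by 0.73 ± 0.18 (adjusted p = 0.028, and adjusted p = 0.27 uncentred). A repressor's transcript level does not give its phosphorylation, which was not measured.

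**Figure D3:**
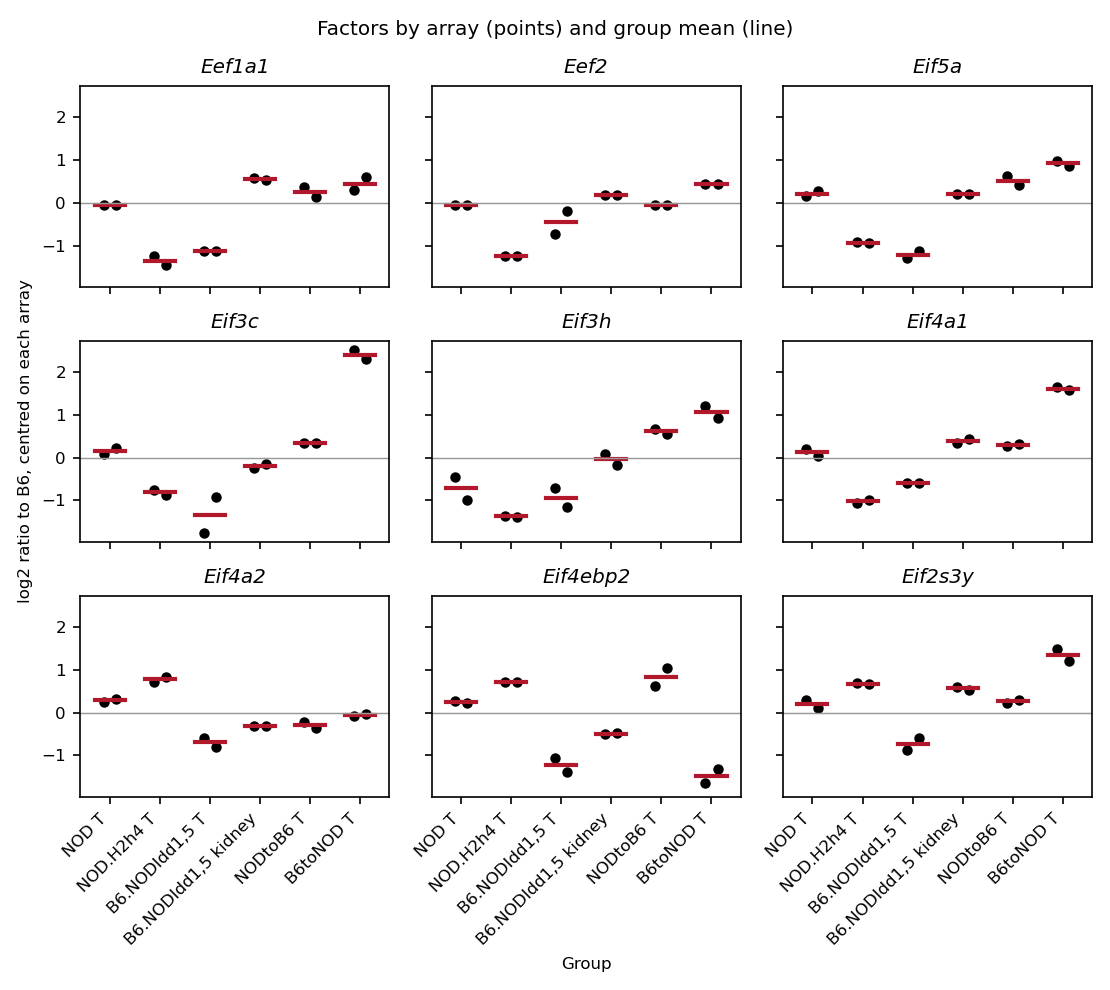
Centred log2 ratio to B6 (vertical axis) of 9 factors in the 6 groups (horizontal axis). Points are the 2 arrays and the red line their mean. Eef1a1, Eef2, Eif5a and Eif4a1 lie below 0 in NOD.H2h4 and B6.NODIdd1,5 T cells, while Eif4a2 and Eif4ebp2 lie above 0 in NOD.H2h4 on this centred scale (-0.03 and -0.09 uncentred).

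Eif4enif1, which carries eIF4E into the nucleus and to processing bodies, and the helicase cofactor Eif4b were, with the eIF3 subunit gene Eif3l, the lowest factors in kidney. Each rested on 1 probe. Eif4enif1 was -2.01 ± 0.45 (arrays -3.06 and -0.95), with 1 of 3 probes at -6.36 and the others at -0.05 and 0.39. With the median of the probes it was -0.05 (adjusted p = 0.69).

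Eif4b was -1.37 ± 0.09, with 1 of 3 probes at -4.03 and the others at 0.08 and -0.17, and its probe median was -0.17 (adjusted p = 0.27). Eif3l was -1.79 ± 0.15, with 1 of 2 probes at -3.69 and the other at 0.11. Eif4h, a further helicase cofactor, was likewise lower in B6.NODIdd1,5 T cells (-1.38 ± 0.23) through 1 of its 2 probes (-2.86 against 0.10), and both of its probes were high in B6toNOD (1.55 and 1.03). These kidney and T cell falls are measurements of single probes, and other probes of the same genes do not show them.

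Probes of the same gene often disagreed. Among factors with several probes, the median range between probes of a gene was 0.32 in NOD and from 0.49 to 0.92 in the other groups. The median difference between the 2 arrays of a group was 0.07 to 0.30, taken over all the factors after probes were averaged. The measures are unlike, since the first is a range over single probes and only covers genes with several. Probes of a gene had opposite signs for 14 of 31 genes in B6toNOD and for 21 of 35 in kidney.

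**Figure D4:**
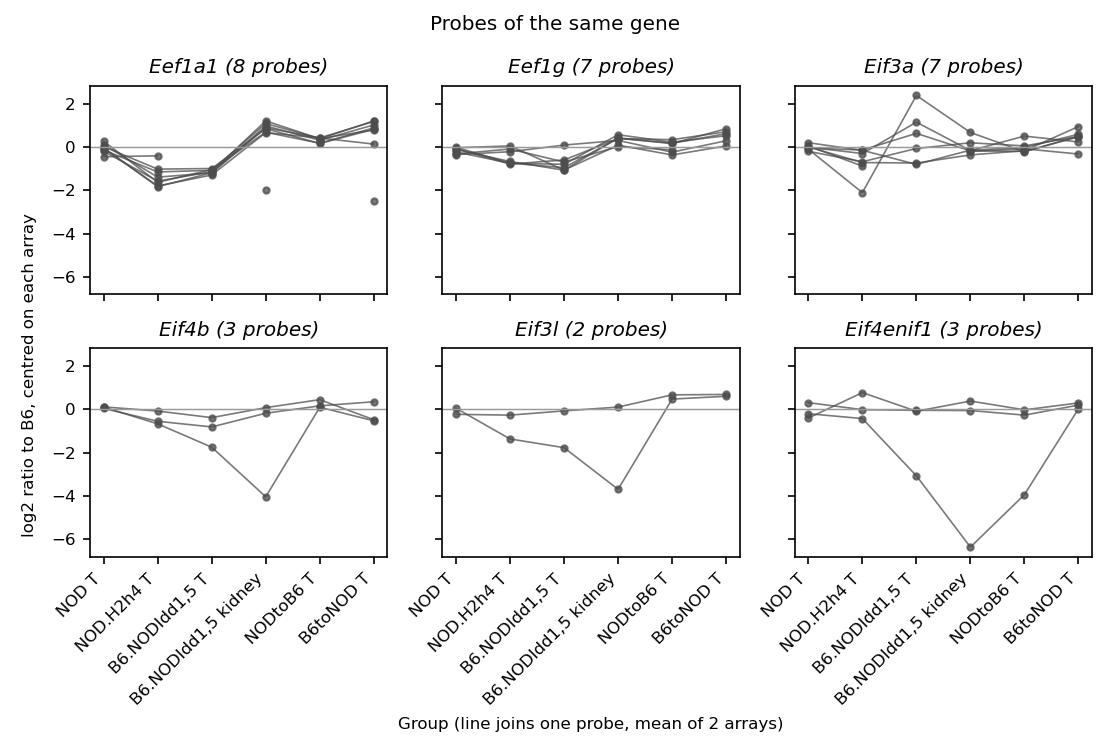
Mean centred log2 ratio to B6 (vertical axis) of each probe of 6 genes in the 6 groups (horizontal axis); each line joins 1 probe and implies no order of the groups. In Eef1a1 7 of 8 probes run together, whereas 1 probe each carries the kidney fall of Eif4b, Eif3l and Eif4enif1.

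Among the eIF2 genes, which deliver the initiator tRNA, Eif2s3y and Eif2s3x encode the same subunit from the Y and X chromosomes, and their probes may cross-hybridize. Eif2s3y was at 0.68 and 0.66 on NOD.H2h4, -0.87 and -0.60 on B6.NODIdd1,5 T cells, 0.59 and 0.53 on kidney, and 1.47 and 1.21 on B6toNOD. Eif2s3x was at -0.64 and -1.36 on B6toNOD, and -0.19 and 1.07 on B6.NODIdd1,5 T cells. In B6toNOD the pair was thus called in opposite directions, at 1.34 ± 0.10 for Eif2s3y (adjusted p = 3.4e-05) and -0.997 ± 0.28 for Eif2s3x (adjusted p = 0.02, and 0.13 with arrays scaled to the same spread). B6.NODIdd1,5 T cells minus kidney was -1.29 ± 0.14 for Eif2s3y (adjusted p = 0.00098). The X-linked transcript Xist, which only cells with an inactive X chromosome make, read 0.35 and 0.37 with 1 probe and 0.12 and -0.04 with the other on the B6toNOD arrays. On the NOD.H2h4 arrays its probes read 1.04 and 1.02, and 1.90 and 1.86. The part of the mice's sex in these values was not tested.

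eIF2B, the 5-subunit exchange factor that reloads eIF2 with GTP, did not move as a complex. In B6.NODIdd1,5 T cells Eif2b1 (0.61 and 1.001) and Eif2b5 (1.14 and 0.55) were higher, by 0.80 ± 0.17 and 0.84 ± 0.23, while Eif2b2 (-1.60 and -1.43) was lower by 1.51 ± 0.22 (adjusted p = 0.0019). Eif2b2 was also lower in kidney (-0.81) and NODtoB6 (-0.80), and Eif2b3 in kidney (-1.09 ± 0.20) and NODtoB6 (-1.30 ± 0.20). Eif2b4 was higher in B6toNOD, at 1.23 and 0.86 (1.04 ± 0.10, adjusted p = 0.00013). Subunits of a single complex were therefore called in opposite directions in the same T cells. Eif2b1 and Eif2b2 were each read by 1 probe, and the Eif2b5 call was lost in 4 of 21 alternatives.

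Of the eIF2 alpha kinases, which slow initiation under stress, Eif2ak1 (heme-regulated) and Eif2ak4 (Gcn2, the sensor of uncharged tRNA) were measured. Eif2ak4 was at -1.27 and -1.29 on NOD.H2h4, 0.74 and 0.48 on B6.NODIdd1,5 T cells and 0.78 and 0.93 on NODtoB6. It was lower in the first (-1.28 ± 0.15, adjusted p = 0.00042) and higher in the others (0.61 ± 0.15, adjusted p = 0.017, and 0.86 ± 0.15, adjusted p = 0.006). Its 2 probes disagreed in B6.NODIdd1,5 T cells (-0.58 and 1.80). Eif2ak1 moved little, from -0.33 in B6toNOD to 0.42 in kidney, and its rises in NOD.H2h4 (0.25) and kidney turned to -0.55 and -0.04 uncentred.

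Of the 7 genes for start codon selection and subunit joining, 4 were lower in NOD.H2h4 (against 18.5% of named genes). In B6.NODIdd1,5 T cells 3 were lower (against 18.2%). Eif1ad, a relative of the scanning factor eIF1A, was called in 5 groups, lower in 4 of them including B6toNOD (-0.69 ± 0.07) and higher in NODtoB6 (0.27). Eif1a was called in NODtoB6 only, at -1.35 and -1.66 (-1.51 ± 0.31, adjusted p = 0.013). Eif6, which keeps the ribosomal subunits apart, was lower in NOD.H2h4 (-0.79), B6.NODIdd1,5 T cells (-0.62) and B6toNOD (-0.56). Eif1b and Eif5b were called in no group.

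The termination factors were seldom called. Etf1, which reads the stop codons, was called in no group, with means from -0.35 to 0.46, and Gspt1, its GTPase partner, was called in B6toNOD (0.48 ± 0.16, adjusted p = 0.042, with a value of -0.28 uncentred). The Gspt1 arrays read 0.15 and 0.81 there, and the call was lost in 12 of 21 alternatives (adjusted p = 0.49 without B6toNOD replicate 2). Of the remaining Eef symbols, Eef1e1, a member of the synthetase complex, was lower in NOD (-0.27 and -0.70, mean -0.48 ± 0.12, adjusted p = 0.041, and adjusted p = 0.14 uncentred). It was higher in kidney (0.73 ± 0.12, but 0.27 and adjusted p = 0.25 uncentred) and B6toNOD (0.51 ± 0.12).

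Eef2kmt, the lysine methyltransferase of eEF2, was the only factor above 0 on all 12 arrays. Its single probe read 0.12 and 0.53 in NOD, 1.19 and 1.16 in NOD.H2h4, 0.53 and 0.49 in B6.NODIdd1,5 T cells, 0.97 and 0.89 in kidney, 1.49 and 1.54 in NODtoB6 and 1.02 and 0.79 in B6toNOD. With no dye swap recorded, a probe that is higher in every group cannot be told apart from dye bias. NOD.H2h4 minus NOD was 0.85 ± 0.15 (adjusted p = 0.01, and adjusted p = 0.43 uncentred). Over the 53 genes, 8 were called in no group, 14 were called lower only, 8 higher only, and 23 were called lower in some groups and higher in others. The same tally was not made over all named genes, so it does not set the factors apart.

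Set directly against NOD, NOD.H2h4 T cells had 15 factors lower (28.3%, against 6.95% of named genes) and 2 higher (3.77%, against 7.1%). B6.NODIdd1,5 T cells had 16 lower (30.2%, against 14.7%) and 3 higher (5.66%, against 7.85%). Both comparisons share the NOD arrays. Against its own kidney, B6.NODIdd1,5 T cells had 14 lower (26.4%, against 10.5%), all 4 elongation factors among them, and 4 higher (7.55%, against 6.29%). NODtoB6 minus B6toNOD had 14 lower (27.5%, against 20.7%) and 6 higher (11.8%, against 12.2%). Uncentred, that last split was 4 lower and 11 higher, and NOD.H2h4 minus NOD was 26 lower and 0 higher, B6.NODIdd1,5 minus NOD 14 and 1, and T cells minus kidney 5 and 5. Removing the centring moves all features of a comparison alike, so these uncentred counts do not set the factors apart. Leaving out any 1 of the NOD, NOD.H2h4 or kidney arrays left 4 to 11 called in NOD.H2h4 minus NOD. Either kidney array left out gave 7 or 9 in T cells minus kidney, and without NODtoB6 replicate 2 the transfers differed in 11.

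The genes with and without the pyrimidine run were also set side by side, with no test. In NOD.H2h4 the 22 genes with a run had a median of -0.38 and the 21 without one -0.14. In B6.NODIdd1,5 T cells the medians were -0.43 and -0.31, in NODtoB6 0.26 and 0.02, and in B6toNOD 0.26 and 0.34. Eef1b2, with no run in the printed window, fell in the same groups as Eef1a1 and Eef2.

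Other genes of translational control came from lists chosen with earlier results known, and several of their counts lay near the share of all named genes. Of 16 genes of mTORC1 and eIF4F control tested, 4 were higher (25%, against 15.5%) and 2 lower (12.5%, against 18.5%) in NOD.H2h4. In B6toNOD 5 were higher (31.2%, against 26.3%) and 3 lower (18.8%, against 21.6%). Among them Rps6, a ribosomal protein phosphorylated downstream of mTORC1, fell by 0.80 ± 0.06 in NOD.H2h4 and by 0.58 ± 0.06 in B6.NODIdd1,5 T cells and rose in kidney (0.45 ± 0.06) and B6toNOD (0.75 ± 0.06), the same groups as Eef1g. Of the integrated stress response genes, 6 of 15 tested were higher (40%, against 26.3%) and 2 lower (13.3%, against 21.6%) in B6toNOD. Of 16 tested in B6.NODIdd1,5 T cells, 4 were higher (25%, against 10.8%) and 6 lower (37.5%, against 18.2%). Atf4, the transcription factor translated when eIF2 is limiting, fell by 0.97 ± 0.10 in NOD.H2h4 and by 0.79 ± 0.10 in B6.NODIdd1,5 T cells and rose in B6toNOD (0.90 ± 0.10).

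Of 20 cytosolic aminoacyl-tRNA synthetase genes tested, 5 were lower (25%, against 18.5%) and 1 higher (against 15.5%) in NOD.H2h4. Cars led the lower ones (-2.47 ± 0.25). In B6toNOD 2 were higher (10%, against 26.3%) and 3 lower (15%, against 21.6%). Mitochondrial translation factors, which serve a separate ribosome, were called higher in 5 of 8 (62.5%, against 15.5%) and lower in none in NOD.H2h4. Most of the cytosolic factors called there were lower. The mitochondrial list did not run one way: Gfm1 (-1.50 and -1.13) and Tsfm (-0.63 and -0.50) were below 0 on both NOD.H2h4 arrays, though not called. Mtif2, the mitochondrial initiation factor, was 0.98 ± 0.08 there. Of 26 poly(A) binding, recycling and quality control genes, 10 were higher (38.5%, against 26.3%) and 7 lower (26.9%, against 21.6%) in B6toNOD. Nemf was among the higher ones (1.57 ± 0.07). At most 2 of the 7 modifiers that add diphthamide or hypusine were called in any group. The shares of all named genes ran from 2.28% lower and 5.56% higher in NOD to 21.6% and 26.3% in B6toNOD. Dhps, which begins hypusine formation on eIF5A, was lower in NOD.H2h4 (-0.97 ± 0.24).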

How the data were processed

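The deposited values were the authors' log2 ratios of 12 two-colour arrays, experimental (Cy5) over B6 (Cy3) per the labels for the 8 strain arrays; of the scanner, background correction and normalization the labels say nothing. The 146 cells at the log2 of a ratio of 100000 were taken as missing, and none lay in these genes. Symbols came from the platform annotation: 13033 probes had 1 symbol, 312 several and 7391 none, and 12850 were matched to RefSeq. Probes were averaged per gene, unnamed probes kept singly, and arrays centred on their medians. limma 3.58.1 in R 4.3.3 (lmFit, eBayes) fitted 6 group means over 12 arrays (residual df 6, prior df 1.36). A feature was tested where both arrays of each group had a value. No filter on low values was possible. The fit was tested on simulated data. The small number of arrays limits the precision, and so do disagreeing probes and dye bias that was not removed.

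Named with values were, per comparison, up to 3 called genes in each direction with clear arrays, a fixed set of central factors, and examples from the 2 smallest p in each further list; others are given by role after their values were seen. The members and lists were chosen with earlier results of these data known. Same-numbered arrays did not pair: deviations correlated at -0.0357 to 0.0216 over 15 pairs of groups.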

Additional observations from a re-analysis of the deposited data

Results flagged for a closer look

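The ratios of B6.NODIdd1,5 to B6 could be set side by side in 2 tissues. The part of the intervals in these ratios was not tested. The 10 named factors below differed between T cells and kidney by the limma test of that difference. Some were named because they passed this test, so their number is not itself a result. Among all 53 factors 18 were called, while 10.5% of named genes were lower in T cells and 6.29% higher. T cells were lower for Eef1a1 (-1.68), Eif5a (-1.41), Eif2s3y (-1.29), Eif4a1 (-0.98), Eif4ebp2 (-0.73), Eef2 (-0.64) and Eif2ak1 (-0.35). T cells were higher for Eif2b1 (1.12), Eif2ak4 (0.97) and Eif3l (0.87). The Eif3l difference rests on 1 of 2 probes, and the Eif2ak4 probes disagree in T cells. Of 21 alternatives, the call was lost in 11 for Eif2ak1 (-0.066, adjusted p = 0.90 uncentred), 10 for Eef2, 6 for Eif4ebp2, 4 each for Eif2ak4 and Eif3l, 3 for Eif2b1, 1 for Eif4a1, and in none for Eef1a1, Eif5a and Eif2s3y. The T cell and kidney arrays have different B6 references, so each value is a difference of 2 ratios. Groups of 2 arrays are too small for a test of single outlying arrays.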

How the results depend on the processing

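Without centring, counts of called factors were 0 in NOD, 44 in NOD.H2h4, 26 in NOD.H2h4 minus NOD and 10 in B6.NODIdd1,5 T cells minus kidney. All features of an array shift alike there, not the factors alone. Signs turned in NOD.H2h4 for Eif4a2 (-0.030), Eif4ebp2 (-0.092), Eif2ak1 (-0.55) and Gspt1 (-0.72), in kidney for Eif4a1 (-0.079) and Eif2ak1 (-0.036), in B6toNOD for Eef1a1 (-0.32), Eef2 (-0.33) and Gspt1 (-0.28), for Eif4a2 in NOD.H2h4 minus NOD (-0.16) and for Eif5a in NODtoB6 minus B6toNOD (0.13). With arrays scaled to the same spread the counts were 12 in NOD, 18 in B6toNOD, 10 in NOD.H2h4 minus NOD and 12 between the transfers. Strain and transfer arrays fitted separately gave 5 in NOD, 12 in B6toNOD, and 0 in NODtoB6 and between the transfers. No share over all features stands beside the counts of this section, so they do not set the factors apart. With the NODtoB6 ratios turned, NODtoB6 values became -1.52 for Eef2kmt, -0.86 for Eif2ak4, -0.82 for Eif4ebp2, 1.51 for Eif1a, 1.30 for Eif2b3, 0.81 for Eif4h, -0.29 for Eif4a1 and -0.51 for Eif5a, and Eif2ak4 between the transfers -0.73.

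Leaving out 1 array gave 0 called in NOD without NOD replicate 2 or any NOD.H2h4 or kidney array. Over the 12 arrays left out in turn, the counts ran from 0 to 3 (NOD), 5 to 18 (NODtoB6), 8 to 23 (kidney), 17 to 29 (NOD.H2h4), 22 to 31 (congenic T cells) and 23 to 34 (B6toNOD), and 4 to 19 for NOD.H2h4 minus NOD, 14 to 22 for B6.NODIdd1,5 minus NOD, 7 to 21 for T cells minus kidney and 11 to 23 between the transfers. Leaving out either B6.NODIdd1,5 T cell array, Eif4e ran from -0.90 to 1.17 against B6 and from -1.04 to 1.04 against NOD. Initiation minus elongation, in the order NOD, NOD.H2h4, B6.NODIdd1,5 T cells, kidney, B6toNOD, was 0.12, 0.49, 0.37, -0.44 and -0.12 after scaling, 0.15, 0.72, 0.24, -0.41 and -0.14 after the running median, and 0.026, 0.75, 0.37, -0.52 and -0.25 with probe medians. With features on all 12 arrays it was 0.073 in NOD, -0.45 in kidney and -0.17 in B6toNOD. As all Eif against all Eef symbols it was 0.14 in NOD.H2h4, 0.0025 in congenic T cells, -0.54 in kidney and -0.25 in B6toNOD. Causes were not tested. With the replicate number as a block NOD had 2 calls, NODtoB6 had 16, kidney 20, NOD.H2h4 28, B6toNOD 29 and congenic T cells 30. The block ended 2 calls, Eif4e3 in NOD.H2h4 minus NOD (adjusted p = 0.052) and Eif2s3x between the transfers (adjusted p = 0.061), and the numbers do not pair the arrays.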
